A study of Mus musculus with 12 samples.

Results

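The motile cilia genes followed here were the protein-coding mouse genes whose symbol is Dnah or Cfap with a number, together with Foxj1. They were chosen by symbol and matched by Ensembl identifier in both count tables of the study. This gave 47 of the 25442 genes present in both tables, 15 Dnah genes, 31 Cfap genes and Foxj1. A noncoding antisense gene with a matching symbol, Dnah2os, was left out, and genes of the same structure that carry other symbols were described separately as lists.

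A motile cilium is built on the axoneme, a ring of microtubule doublets around a central pair. Dnah genes encode the dynein heavy chains, the ATPase motors of the outer and inner arms that slide the doublets and bend the cilium. Many Cfap genes (cilia and flagella associated proteins) encode the rulers, tethers, spokes and microtubule inner proteins that hold the motors in place. Foxj1 encodes the forkhead transcription factor that switches on the program of motile ciliogenesis. In the brain, motile cilia are carried by the ependymal cells that line the ventricles, and cilia of this gene program also occur on the choroid plexus epithelium, which secretes cerebrospinal fluid. The hippocampus borders the lateral ventricle and its choroid plexus. Mature astrocytes and microglia are not known for motile cilia.

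All 12 libraries came from hippocampi of male C57Bl6/J mice that had received, at 2 months of age, bilateral CA1 injections of an AAV2/9 vector driven by the astrocyte-selective promoter GfaABC1D. The vector carried eGFP (AAV-GFP, the control) or the murine Adora2a gene, which encodes the adenosine A2A receptor (AAV-A2A). Cells were sorted 2 months later, at 4 months of age, after removal of myelin. Beads against the astrocyte surface antigen ACSA-2 gave the ACSA-2 fraction (AAV-GFP-303, AAV-GFP-306 and AAV-GFP-307, and AAV-A2A-309, AAV-A2A-310 and AAV-A2A-313). Beads against the myeloid antigen CD11b, applied to the cells left after the ACSA-2 step, gave the CD11b fraction (AAV-GFP-2328, AAV-GFP-2329 and AAV-GFP-2331, and AAV-A2A-2343, AAV-A2A-2344 and AAV-A2A-2347), with 3 libraries per group. The promoter is selective for astrocytes, so the CD11b cells are neighbours of the cells meant to carry the transgene. The labels do not tie ACSA-2 libraries to CD11b libraries of the same animals, and fraction, count table and library series cannot be told apart.

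Total counts per library went from 33937067 to 49217553 in ACSA-2 and from 36098295 to 53206974 in CD11b. Adora2a had 23.2 to 25.6 CPM (read counts on a per-million scale, with TMM factors over all 12 libraries) in the ACSA-2 AAV-GFP libraries and 655 to 926 CPM in the ACSA-2 AAV-A2A libraries. In CD11b it had 3.77 to 8.30 CPM with AAV-GFP and 15 to 45.2 CPM with AAV-A2A. The 8 astrocyte markers summed to 21591 to 34409 CPM in ACSA-2 and 263 to 463 CPM in CD11b. The 8 microglia markers summed to 249 to 434 CPM in ACSA-2, and in CD11b to 7295, 14744 and 53680.0 CPM in AAV-GFP-2328, AAV-GFP-2329 and AAV-GFP-2331 and 60261, 50021 and 20685 CPM in AAV-A2A-2343, AAV-A2A-2344 and AAV-A2A-2347. Thus AAV-GFP-2328, AAV-GFP-2329 and AAV-A2A-2347 held the least microglia marker RNA of the CD11b libraries, in both vector groups. The same 3 libraries held 68820.0, 57679 and 25247 CPM of Ttr, the transthyretin of choroid plexus, against 5.27 to 79.4 CPM in the other 3, and the counts of members called are given with and without them.

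Promoters of 3 members are printed before their values, because the members are known as targets of shared transcription factors. The RFX transcription factors of ciliated cells are known to bind the X-box, made of GTTGCC-like sites that face each other, and Foxj1 binds forkhead sites such as TGTTTAC. RefSeq promoters of 300 bases (250 before the start and 50 after, GRCm38.p6) were found for 38 of the 47 members. On either strand, GTTGCC stood in 14 of these 38 genes (36.8%) against 14.1% of all 27025 genes with a promoter, and TGTTTAC in 3 of 38 (7.89%) against 4.05%, shares that are given without a test. A match is a description of letters and not a bound site. Of the 250 bases before the start, those that GENCODE vM21 does not place in an exon are printed 5′ to 3′ on the strand of the gene, with both motifs and their reverse complements (GGCAAC and GTAAACA) in capitals. Cfap161 is shown as the member with the largest difference between the fractions, Cfap20 as the member that matched both motifs, and Dnah2 as a member that did not overlap between the vectors in ACSA-2 and in which neither motif was found.
Cfap161 (chr7:83794881-83795089, minus strand): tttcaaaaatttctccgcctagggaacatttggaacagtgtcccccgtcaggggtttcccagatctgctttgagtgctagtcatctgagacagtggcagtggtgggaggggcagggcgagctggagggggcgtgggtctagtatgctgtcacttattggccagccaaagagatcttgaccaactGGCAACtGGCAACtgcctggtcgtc
Cfap20 (chr8:95434870-95435119, minus strand): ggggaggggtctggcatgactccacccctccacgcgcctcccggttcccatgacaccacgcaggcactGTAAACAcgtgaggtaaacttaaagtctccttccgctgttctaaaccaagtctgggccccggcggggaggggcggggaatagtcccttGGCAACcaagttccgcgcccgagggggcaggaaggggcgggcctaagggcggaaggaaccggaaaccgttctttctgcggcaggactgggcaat
Dnah2 (chr11:69549111-69549358, minus strand): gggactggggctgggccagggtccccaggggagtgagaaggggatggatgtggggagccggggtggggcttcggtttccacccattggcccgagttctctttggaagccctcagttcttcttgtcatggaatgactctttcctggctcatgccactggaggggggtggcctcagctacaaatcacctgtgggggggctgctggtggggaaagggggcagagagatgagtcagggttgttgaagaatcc
In Cfap161 the letters GGCAAC began at -66 and -59, counted from the RefSeq start with -1 as the base before it, and again at -39 beyond the printed stretch. In Cfap20 the letters GTAAACA began at -182 and GGCAAC at -94. In neither gene did a GTTGCC face a GGCAAC. In Cfap298, not printed here, GTTGCC began at -188 with GGCAAC at -180, and again at -69 with GGCAAC at -60. The 3 paralogs Dnah7a, Dnah7b and Dnah7c each had a GTTGCC, at -200, -163 and -219, and count as 3 of the 14 genes with this motif. Only exact letters were searched. Facing sites with other letters, which these paralogs hold nearer to the start and which Dnah6 also holds, were not counted.

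Motile cilia transcripts were present in every library of both fractions. Between 44 and 47 of the 47 members had at least 1 count in a library, and together they took 0.0627 to 0.130% of all counts in ACSA-2 and 0.0243 to 0.126% in CD11b. Their summed level was 1116, 1326 and 1117 CPM in the ACSA-2 AAV-GFP libraries and 1188, 1253 and 670.2 CPM in AAV-A2A-309, AAV-A2A-310 and AAV-A2A-313, so that AAV-A2A-313 had the lowest sum and the other 5 lay within a narrow range. In CD11b the sum was 1079, 919 and 343 CPM in AAV-GFP-2328, AAV-GFP-2329 and AAV-GFP-2331 and 298, 259.6 and 774 CPM in AAV-A2A-2343, AAV-A2A-2344 and AAV-A2A-2347. Here 3 libraries, of both vectors, came near the ACSA-2 level and 3 lay below it. Over 6 libraries the mean was 1112 ± 231 CPM in ACSA-2 and 612 ± 356 CPM in CD11b (SD, n = 6). In bulk samples, fewer ciliated cells and less ciliary RNA per cell cannot be told apart.

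**Figure D1:**
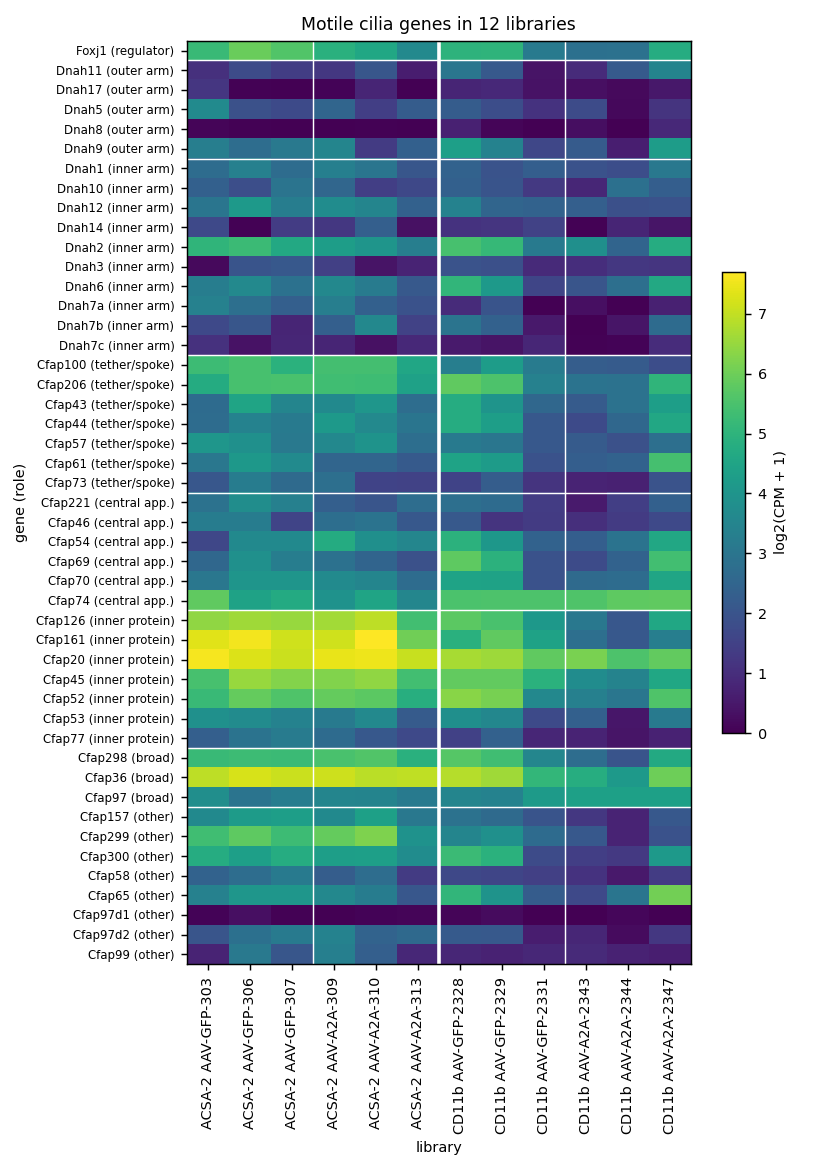
Level of each of the 47 motile cilia genes (rows, ordered by role) in each of the 12 libraries (columns), as log2(CPM + 1) by colour, with thin lines between vector groups and roles and a thick line between fractions. Cfap20, Cfap161 and Cfap36 are the brightest rows in ACSA-2, Cfap74 is even across the CD11b libraries, and Dnah8 and Cfap97d1 are near 0 in every library.

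Of the 47 members, 44 passed the filter on low counts in ACSA-2, 45 in CD11b and 45 over both fractions. Dnah8, an outer arm heavy chain, and Cfap97d1 passed in none, and Dnah17 passed in CD11b and over both. Levels between genes were compared per length, as mean CPM per kb of exon. In ACSA-2 the highest were Cfap126 (chr1:171113918-171126967) with 49.8 ± 15, Cfap36 (chr11:29221532-29247409) with 47.8 ± 4.31, Cfap161 (chr7:83774101-83794880) with 47.2 ± 15.7, Cfap20 (chr8:95420249-95434869) with 36.2 ± 5.30 and Cfap299 (chr5:98329304-98802047) with 31.8 ± 13.9 CPM per kb (SD, n = 6). The first 3 differed by less than their spread. In CD11b the order was Cfap36 with 21.4 ± 14.6, Cfap52 (chr11:67924806-67965651) with 16 ± 14.0, Cfap20 with 15.9 ± 5.12, Cfap298 (chr16:90925809-90935114) with 14.0 ± 12.1 and Cfap126 with 13.8 ± 11.3 CPM per kb, neighbours that again overlapped within their SD. In the 3 CD11b libraries not rich in choroid plexus markers (AAV-GFP-2331, AAV-A2A-2343 and AAV-A2A-2344) the order was Cfap20 with 12.8 ± 2.71, Cfap36 with 9.36 ± 3.07, Cfap126 with 5.10 ± 3.79, Cfap74 with 4.94 ± 0.432 and Cfap298 with 4.07 ± 2.45 CPM per kb (SD, n = 3). Cfap126, Cfap161, Cfap20 and Cfap52 encode microtubule inner proteins. Cfap20, Cfap36, Cfap97 and Cfap298 are known from many cells without motile cilia. Without these 4 genes the members summed to 377 to 978 CPM in ACSA-2 and 174 to 802 CPM in CD11b. Dynein heavy chains were lower per length, with Dnah2, an inner arm chain, at 1.52 ± 0.711 and 1.44 ± 1.03 CPM per kb as the most abundant of them in both fractions. Exons of Cfap298 overlap antisense genes over 53.6% of their length, and those of Cfap299 overlap another gene over 19.1%, so their counts are uncertain.

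**Figure D2:**
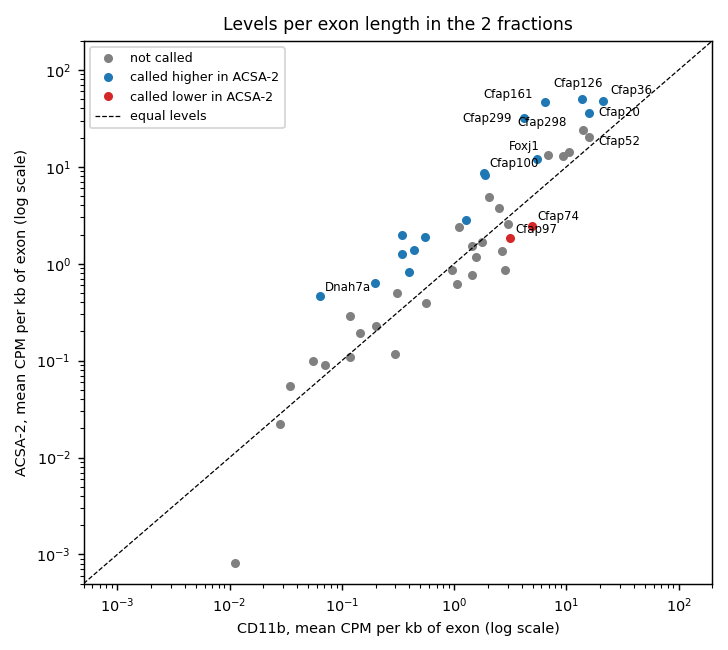
Mean level per kb of exon in the 6 CD11b libraries (x axis) against that in the 6 ACSA-2 libraries (y axis), both on log scales, for the 47 motile cilia genes. Points above the dashed line of equal levels are higher in ACSA-2, and the 16 genes called higher lie above it while Cfap74 and Cfap97, called lower, lie below.

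Most microtubule inner proteins and several other Cfap genes were higher in ACSA-2 than in CD11b, whereas most dynein heavy chains did not pass the test. Of 45 members tested over 12 libraries, 18 were called (edgeR adjusted p under 0.05 and absolute log2 FC over 0.32), 16 higher in ACSA-2 and 2 lower. Over all 18602 genes tested 54.1% were called, 24.6% higher and 29.4% lower. The members' share of calls (40%) was thus below that of all genes, with more of them on the ACSA-2 side (35.6%) and fewer on the CD11b side (4.44%). The median log2 FC was 0.72 over the members and -0.13 over all genes. By role, 5 of 7 microtubule inner proteins, 2 of 7 genes of tethers, inner arm base and radial spokes, 1 of 6 genes of the central apparatus, 2 of 10 inner arm heavy chains and 0 of 4 outer arm heavy chains were called higher. Of the 7 other members tested, among them Cfap299, 5 were called higher. Of the members known from many cells 2 of 4 were called higher, Cfap20 being counted with these and with the inner proteins. The median log2 FC was 2.12 for the other members (range -1.02 to 3.28), the highest of any role, 1.35 for inner proteins (range 0.48 to 3.36), 0.58 for tethers and spokes (-1.10 to 2.51), 0.48 for inner arm chains (-0.76 to 3.19), -0.24 for the central apparatus (-1.74 to 1.66) and -0.38 for outer arm chains (-1.31 to 1.32). The 15 Dnah genes summed to 36.9 to 100.3 CPM in ACSA-2 and 27.3 to 137 CPM in CD11b, ranges that overlapped. Of the called members, Dnah12, an inner arm chain, lost its call in 6 of 12 cases when single libraries were dropped, Cfap97 and Dnah7a in 3 each, and the other 15 in 0.

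Cfap161 had the largest rise. Its level was 162, 189 and 139 CPM in the ACSA-2 AAV-GFP libraries and 140.4, 207 and 64.3 CPM in AAV-A2A, against 28.5, 56.1 and 20.8 CPM in CD11b AAV-GFP and 6.07, 3.31 and 8.88 CPM in CD11b AAV-A2A. Every ACSA-2 library was above every CD11b library (log2 FC 3.36, SE 0.37, edgeR adjusted p = 2.60e-05). Within the module it took 9.60 to 16.5% of the members' summed CPM in ACSA-2 and 1.15 to 6.10% in CD11b. Cfap299, whose role in cilia is less settled, had 14.2 to 72.7 CPM in ACSA-2 and 0.710 to 13.6 CPM in CD11b, again without overlap (log2 FC 3.28, SE 0.48, edgeR adjusted p = 1.71e-04). Dnah7a (chr1:53397006-53706784), an inner arm heavy chain, had 2.87 to 9.39 CPM in ACSA-2 and 0 to 3.04 CPM in CD11b (log2 FC 3.19, SE 1.05, edgeR adjusted p = 0.0236), and lost its call in 3 of 12 cases when single libraries were dropped (adjusted p = 0.0541 without ACSA-2 AAV-A2A-309, 0.0522 without CD11b AAV-GFP-2328 and 0.0533 without AAV-A2A-2343). Only uniquely aligned reads were counted, so any read shared with its paralogs Dnah7b and Dnah7c is left out. These paralogs were not called (log2 FC 0.31 and 0.66, edgeR adjusted p = 0.818 and 0.533).

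Among the most abundant members, Cfap126, also called Flattop, was higher in ACSA-2 (log2 FC 2.10, SE 0.47, edgeR adjusted p = 0.00280), as were Cfap20 (log2 FC 1.21, SE 0.20, edgeR adjusted p = 4.27e-04) and Cfap36 (log2 FC 1.28, SE 0.35, edgeR adjusted p = 0.00915). Cfap52 (log2 FC 0.48, SE 0.53, edgeR adjusted p = 0.465), Cfap298 (log2 FC 1.00, SE 0.49, edgeR adjusted p = 0.105) and Foxj1 (log2 FC 0.88, SE 0.46, edgeR adjusted p = 0.123) did not pass the threshold. For Cfap20 and Cfap36 no ACSA-2 library overlapped a CD11b library. In all, 6 of 45 members were higher in every ACSA-2 library than in any CD11b library, against 15.8% of all genes tested, and 0 were lower in every ACSA-2 library, against 15.8%.

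The 2 members called lower in ACSA-2 were Cfap74 and Cfap97. Cfap74 (chr4:155409190-155466823), a gene of the central apparatus, had 45.0, 45.8 and 46.0 CPM in CD11b AAV-GFP-2328, AAV-GFP-2329 and AAV-GFP-2331 and 47.3, 54.0 and 55.5 CPM in AAV-A2A-2343, AAV-A2A-2344 and AAV-A2A-2347. It was thus nearly even across the 6 CD11b libraries. In ACSA-2 it had 55.4, 20.7 and 25.0 CPM in AAV-GFP and 14.3, 21.7 and 10.6 CPM in AAV-A2A (log2 FC -1.10, SE 0.27, edgeR adjusted p = 0.00466), with AAV-GFP-303 at the CD11b level. Its share of the members' summed CPM was 4.17 to 20.8% in CD11b and 1.20 to 4.96% in ACSA-2. Cfap97 (chr8:46151771-46195590) had 6.76 to 12.9 CPM in ACSA-2, and 10.4, 9.70 and 17.2 and 19.8, 19.9 and 19.8 CPM in the CD11b groups, with the libraries AAV-GFP-2328 and AAV-GFP-2329 at the ACSA-2 level (log2 FC -0.73, SE 0.25, edgeR adjusted p = 0.0266). Its call was lost without ACSA-2 AAV-GFP-306, ACSA-2 AAV-A2A-313 or CD11b AAV-GFP-2331 (adjusted p = 0.0640, 0.0609 and 0.0687).

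The fraction comparison depended on which CD11b libraries entered it. Without AAV-A2A-2347, 27 of 45 members were called, where 50.7% of all genes were. Without the 3 libraries rich in choroid plexus markers (AAV-GFP-2328, AAV-GFP-2329 and AAV-A2A-2347), a choice made after seeing the data, 28 of 45 were called, 26 higher in ACSA-2 and Cfap74 and Cfap97 lower, where 47.4% of all genes were. The members' median log2 FC was then 1.83 and that of all genes 0.26. Foxj1 was among those called (log2 FC 2.16, edgeR adjusted p = 8.37e-04). By role the median became 2.26 for microtubule inner proteins, 1.78 for tethers and spokes, 1.35 for the central apparatus (5 of 6 above 0), 1.32 for inner arm chains and 1.27 for outer arm chains (4 of 4 above 0), so that the medians of central apparatus and outer arm genes changed sign. In this fit CD11b AAV-GFP rests on 1 library, assumed to vary like the other groups. With AAV-GFP libraries alone 4 of 45 members were called, where 25.8% of all genes were, and with AAV-A2A libraries alone 15 of 44, where 46.6% were.

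The level of the module in CD11b differed between single libraries, and so did markers of choroid plexus. The 20 choroid plexus markers summed to 78853, 65096 and 137 CPM in AAV-GFP-2328, AAV-GFP-2329 and AAV-GFP-2331 and to 96.8, 27.4 and 33484 CPM in AAV-A2A-2343, AAV-A2A-2344 and AAV-A2A-2347, and to 727 to 1325 CPM in ACSA-2. All 20 had their 3 highest CD11b libraries in AAV-GFP-2328, AAV-GFP-2329 and AAV-A2A-2347, and 0 counts were found for Prlr, Aqp1, Slc4a5 and Wfdc2 in AAV-A2A-2344. These 3 libraries were set apart by the same markers, so that order of the markers is not a separate result. The 16 ependymal markers summed to 1811, 2266 and 439 CPM and 250.4, 134 and 685 CPM in the same CD11b libraries, and to 1128 to 3735 CPM in ACSA-2. Of the ependymal sum, 1500015O10Rik made up 1276, 1364 and 499.5 CPM in AAV-GFP-2328, AAV-GFP-2329 and AAV-A2A-2347. The other 15 ependymal markers summed to 535, 902.5 and 416 CPM and to 244, 132 and 186 CPM, with AAV-A2A-2347 below AAV-GFP-2331. Of the 16 ependymal markers 6 had these 3 libraries as their highest. Among members, 26 of 45 had these 3 libraries as the highest of CD11b, a pattern shown by 18.3% of all genes tested. Foxj1 itself had 30.5, 31.1 and 7.88 CPM in AAV-GFP-2328, AAV-GFP-2329 and AAV-GFP-2331 and 6.19, 6.33 and 26.6 CPM in AAV-A2A-2343, AAV-A2A-2344 and AAV-A2A-2347, and so belonged to these 26. The part that cells of either kind have in the members' levels was not tested.

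**Figure D3:**
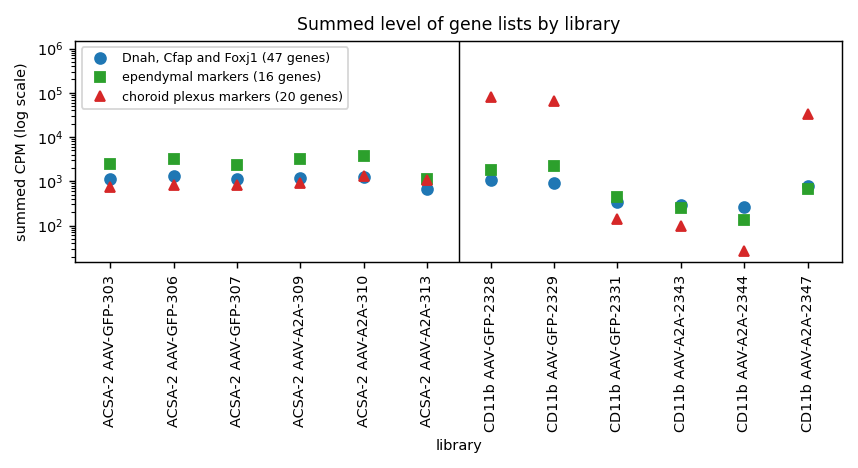
Summed CPM (log scale) of the 47 motile cilia genes, the 16 ependymal markers and the 20 choroid plexus markers in each of the 12 libraries, 1 point per list and library. Choroid plexus markers sum to 33484 to 78853 CPM in CD11b AAV-GFP-2328, AAV-GFP-2329 and AAV-A2A-2347, and the motile cilia genes are higher in these than in the other 3 CD11b libraries.

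Ependymal and choroid plexus markers were ordered differently over the CD11b libraries, and the members were read against the share of all genes in each order. The ependymal list was not screened for genes of motile cilia, such as Dynlrb2, Pifo and Ak7, so it is not a reference independent of the members. AAV-GFP-2329 was the highest of the 6 libraries for 14 of 16 ependymal markers, for 1 of 20 choroid plexus markers and for 8 of 45 members (17.8%, near the 14.0% of all genes). AAV-GFP-2328 was the highest for 2 of 16 ependymal markers, for 11 of 20 choroid plexus markers and for 26 of 45 members (57.8%, against 20.0% of all genes). AAV-A2A-2347 exceeded AAV-GFP-2331 in all 20 choroid plexus markers, in 6 of 16 ependymal markers and in 36 of 45 members, against 49.2% of all genes. This pair was chosen after seeing the data. AAV-A2A-2347 had been set apart by its choroid plexus markers, so their order in the pair is not a separate result. Tmem212, an ependymal marker, had 48.7 CPM in AAV-GFP-2331 and 5.36 CPM in AAV-A2A-2347.

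The members with the widest gap toward AAV-A2A-2347, named after their values were seen, were Dnah11, an outer arm heavy chain, with 0.313 CPM in AAV-GFP-2331 and 10.1 CPM in AAV-A2A-2347, Cfap65 with 3.71 and 66.4 CPM, and Cfap61, a radial spoke gene, with 2.82 and 41.8 CPM. Cfap69 with 2.84 and 40.4 CPM, the inner arm gene Dnah6 with 2.04 and 24.2 CPM and Dnah7b with 0.444 and 5.49 CPM went the same way. For Foxj1 the ratio of AAV-A2A-2347 to AAV-GFP-2331 was 3.37. In 9 members the order was the opposite. Among them were Dnah14 with 1.85 and 0.356 CPM, Cfap100 with 8.25 and 2.53 CPM, Cfap161 with 20.8 and 8.88 CPM and Cfap299 with 5.40 and 2.85 CPM. In the fraction comparison Cfap61, Cfap65, Cfap69, Dnah6 and Dnah11 had a log2 FC below 0 (-1.10, -1.02, -1.74, -0.76 and -1.31, edgeR adjusted p between 0.0725 and 0.330). Dnah7b and Cfap300, with a ratio of AAV-A2A-2347 to AAV-GFP-2331 of 12.4 and 7.08, had a log2 FC of 0.31 and 0.70 there and so went the other way. Both comparisons use the same CD11b libraries.

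**Figure D4:**
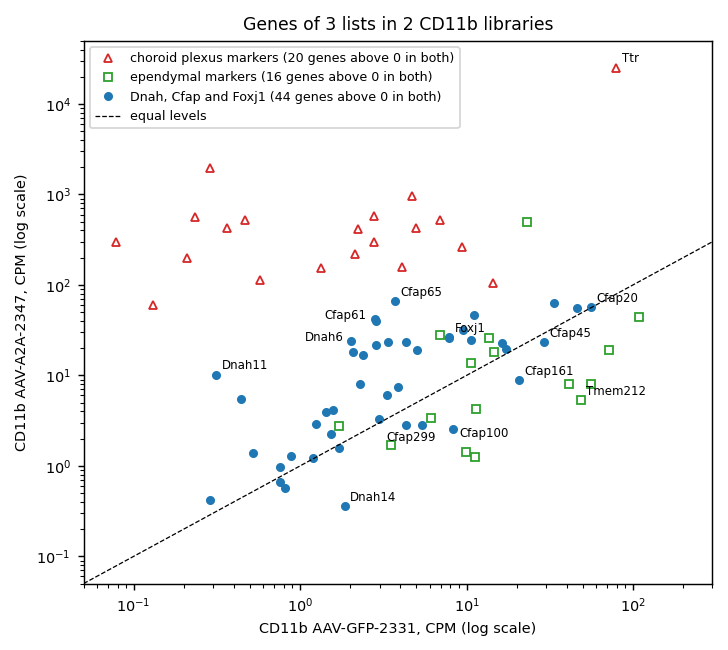
CPM in CD11b AAV-GFP-2331 (x axis) and CD11b AAV-A2A-2347 (y axis), both on log scales, for the genes of 3 lists with counts in both libraries. Choroid plexus markers lie above the dashed line of equal levels, 10 of 16 ependymal markers lie below it, and the motile cilia genes spread over both sides, from Dnah11 above to Dnah14 below.

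AAV-A2A against AAV-GFP in ACSA-2 asks whether the receptor in astrocytes changed this module. With edgeR 0 of 44 members were called, where 3.36% of the 16451 genes tested were, and 5 members had an unadjusted p under 0.05 (Foxj1, Dnah2, Cfap61, Cfap221 and Cfap74, all lower in AAV-A2A), or 11.4%, where 2141 genes, 13% of all, did. With DESeq2 3 of 47 members were called, Foxj1, Dnah2 and Cfap61, where 4.57% of all genes were. The log2 FC was above 0 in 12 members and below 0 in 32, with a median of -0.21 against 0.022 over all genes. Between the groups 4 members did not overlap and were lower in AAV-A2A (Foxj1, Dnah2, Cfap61 and Cfap221), where 11.5% of genes did so, and 0 were higher without overlap, where 7.84% were.

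Foxj1 (chr11:116330704-116335399) had 36.6, 60.4 and 48.2 CPM in AAV-GFP-303, AAV-GFP-306 and AAV-GFP-307 and 28.5, 23.3 and 11.5 CPM in AAV-A2A-309, AAV-A2A-310 and AAV-A2A-313, with each AAV-A2A library below each control (log2 FC -1.18, SE 0.34, edgeR adjusted p = 0.126, DESeq2 adjusted p = 0.0205). Dnah2 (chr11:69420809-69549110) had 32.1, 37.2 and 24.3 CPM in AAV-GFP and 18.5, 15.2 and 8.90 CPM in AAV-A2A (log2 FC -1.11, SE 0.32, edgeR adjusted p = 0.118, DESeq2 adjusted p = 0.0176). Cfap61 (chr2:145934784-146215039) had 7.25, 16.3 and 11.8 CPM in AAV-GFP and 4.73, 4.65 and 3.58 CPM in AAV-A2A (log2 FC -1.42, SE 0.40, edgeR adjusted p = 0.117, DESeq2 adjusted p = 0.0111). Dnah2 and Cfap61 were named after their values were seen. In edgeR these 3 genes missed the threshold whichever single library was dropped, and DESeq2 was not run on such subsets.

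The other abundant members had log2 FC near 0 between the vectors in ACSA-2. For Cfap161 the vectors gave log2 FC -0.23, SE 0.35, edgeR adjusted p = 0.883. The log2 FC of Cfap126 (-0.023), Cfap36 (-0.067), Cfap20 (0.035), Cfap299 (0.15), Cfap52 (0.0060) and Cfap298 (0.14) had SEs between 0.17 and 0.47. The shift of the members' median below 0 rested on 1 library. AAV-A2A-313 was the lowest of the 6 libraries for 28 of 44 members, against 16.6% of genes, and for 15 of 16 ependymal markers, which summed to 3180.2, 3735 and 1128 CPM in AAV-A2A-309, AAV-A2A-310 and AAV-A2A-313 and to 2452, 3119 and 2339 CPM in AAV-GFP. Without AAV-A2A-313 the members' median log2 FC was 0.020, against 0.0013 over all genes, with 24 above 0 and 21 below, and Foxj1 had -0.89. The 16 ependymal markers had a median log2 FC of 0.053, with 0 called, where 3.36% of all genes were. Choroid plexus markers were ordered differently, and AAV-A2A-313 was the lowest for 2 of 18 (11.1%). All 20 summed to 727, 821 and 841 CPM in AAV-GFP and 905, 1325 and 1094 CPM in AAV-A2A. Of the 18 tested, 12 were above 0 and 6 below (median 0.28). An unadjusted edgeR p under 0.05 was found in 3, where 13% of all genes had one, and 0 were called.

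Over all genes tested in ACSA-2, 3.36% were called, 524 of the 553 lower in AAV-A2A. Of the 9 ciliogenesis regulators tested there, 1 was called, and it was lower in AAV-A2A. This was Rfx3, an RFX factor of ciliogenesis and the gene of this list with the most counts, with 429, 322 and 254 CPM in AAV-GFP-303, AAV-GFP-306 and AAV-GFP-307 and 84.1, 43.6 and 80.9 CPM in AAV-A2A-309, AAV-A2A-310 and AAV-A2A-313 (log2 FC -2.24, SE 0.29, edgeR adjusted p = 0.00366). Rfx3 was lowest in AAV-A2A-310, and the ependymal markers summed lowest in AAV-A2A-313. Which cells carry the RNA of Rfx3 was not tested, and the order of single libraries cannot tell. Rfx3 passed the threshold whichever of the 6 libraries was dropped, with log2 FC between -2.41 and -1.99. It missed the threshold in the fit of all 12 libraries (edgeR adjusted p = 0.124). In CD11b Rfx3 had 104, 68.9 and 24.1 CPM in AAV-GFP and 27.9, 15.3 and 58.8 CPM in AAV-A2A (log2 FC -0.95, SE 0.71, edgeR adjusted p = 0.533), with its 3 highest libraries among those rich in choroid plexus markers. Rfx2, another RFX factor, had 7.94 to 21.6 CPM in ACSA-2 (log2 FC -0.18, SE 0.42, edgeR adjusted p = 0.937), and Trp73, the p73 factor upstream of Foxj1, 3.43 to 24.2 CPM (log2 FC -0.68, SE 0.52, edgeR adjusted p = 0.692). These last genes were also picked once their values were known. Between fractions Rfx3 (log2 FC 1.69, SE 0.40, edgeR adjusted p = 0.00407) and Ccdc78, a deuterosome gene (log2 FC 1.5, SE 0.47, edgeR adjusted p = 0.0178), were called higher in ACSA-2. Of all genes tested 24.6% were.

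**Figure D5:**
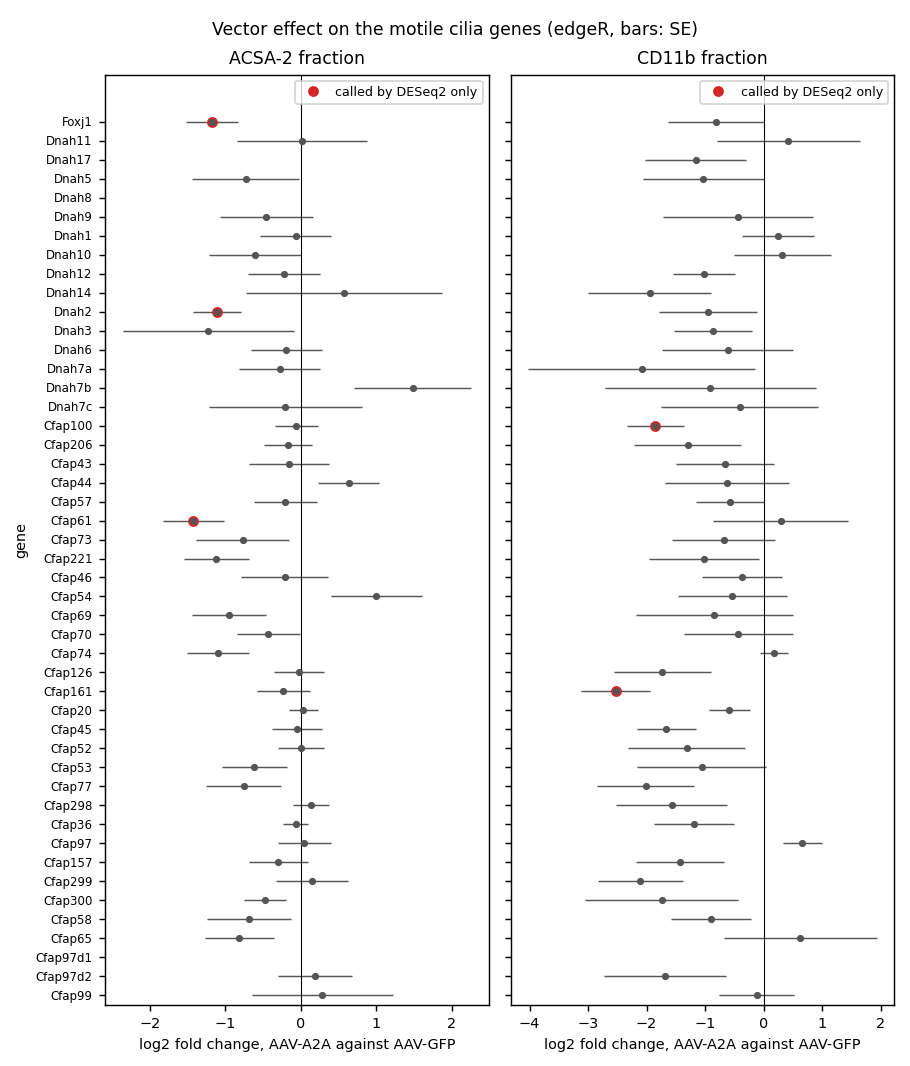
Log2 FC of AAV-A2A against AAV-GFP for each motile cilia gene tested, in ACSA-2 (left) and CD11b (right), with bars of 1 SE from edgeR. Red points mark genes called by DESeq2 and not by edgeR (Foxj1, Dnah2 and Cfap61 in ACSA-2, Cfap100 and Cfap161 in CD11b), and the bars in CD11b are the wider ones for most genes.

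In CD11b the same comparison called 0 of 45 members with edgeR, as it called 0.0% of the 16949 genes tested. Of all genes 2704 (16.0%) had an unadjusted p under 0.05, and of the members 5 (11.1%) did (Cfap100, Cfap161, Cfap299, Cfap45 and Cfap77, all lower in AAV-A2A). DESeq2 called 2 of 47 members, Cfap100 and Cfap161, where 1.5% of all genes were called. The log2 FC was above 0 in 7 members and below 0 in 38, with a median of -0.90 against -0.050 over all genes. By role, the median was -1.66 for microtubule inner proteins, all 7 below 0, -0.89 for inner arm heavy chains (8 of 10 below 0), -0.74 for outer arm heavy chains (3 of 4), -0.66 for tethers and spokes (6 of 7) -0.48 for the central apparatus (5 of 6) and -1.43 for the other members (6 of 7). Lower in AAV-A2A without overlap were 8 of 45 members (10.6% of genes), and higher without overlap were 2, Cfap74 and Cfap97 (12.0% of genes).

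Cfap161 had 28.5, 56.1 and 20.8 CPM in AAV-GFP-2328, AAV-GFP-2329 and AAV-GFP-2331 and 6.07, 3.31 and 8.88 CPM in AAV-A2A-2343, AAV-A2A-2344 and AAV-A2A-2347, each AAV-A2A library below each control (log2 FC -2.53, SE 0.58, edgeR adjusted p = 0.280, DESeq2 adjusted p = 0.0119). Cfap100 (chr6:90403479-90428797), which encodes a protein at the base of the inner arms, had 8.87, 18.2 and 8.25 CPM in AAV-GFP and 3.88, 3.67 and 2.53 CPM in AAV-A2A (log2 FC -1.85, SE 0.48, edgeR adjusted p = 0.280, DESeq2 adjusted p = 0.0344). It was named after its values were seen. Cfap299 had 10.3, 13.6 and 5.40 and 3.33, 0.710 and 2.85 CPM (log2 FC -2.11, SE 0.72, edgeR adjusted p = 0.282). In these 3 genes AAV-A2A-2347 was, like the other AAV-A2A libraries, below each control. In Foxj1 AAV-A2A-2347 exceeded AAV-GFP-2331 (log2 FC -0.81, SE 0.82, edgeR adjusted p = 0.650), as it did in Cfap52 (log2 FC -1.32, SE 1.00, edgeR adjusted p = 0.541), Cfap298 (log2 FC -1.57, SE 0.95, edgeR adjusted p = 0.444), Cfap126 (log2 FC -1.73, SE 0.83, edgeR adjusted p = 0.357) and Cfap36 (log2 FC -1.19, SE 0.68, edgeR adjusted p = 0.423). For Cfap20, Dnah7a, Cfap74 and Cfap97 the log2 FC was -0.59, -2.09, 0.18 and 0.66 (SE 0.35, 1.94, 0.24 and 0.34).

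Of the ependymal markers 16 of 16 had a log2 FC below 0 in the CD11b AAV-A2A libraries, with a median of -2.20, an unadjusted p under 0.05 in 11 and 0 called by edgeR. The one with the most counts over the CD11b libraries, 1500015O10Rik (augurin), which is also high in choroid plexus, had 1276, 1364 and 23.2 CPM in AAV-GFP and 6.73, 2.57 and 499.5 CPM in AAV-A2A (log2 FC -2.33, SE 2.10, edgeR adjusted p = 0.610). Tm4sf1 had 124, 243 and 108 and 76.7, 52.6 and 44.0 CPM (log2 FC -1.5, SE 0.42, edgeR adjusted p = 0.280). Choroid plexus markers had 17 of 20 below 0, a median of -1.62 and 0 called, with Ttr at log2 FC -2.26, SE 2.84, edgeR adjusted p = 0.718. Red cell markers, which are of blood and not of ventricles, summed to 2379.5, 5982 and 1016 CPM in AAV-GFP and 253, 221 and 56.7 CPM in AAV-A2A. All 5 were below 0 with an unadjusted p under 0.05 (median -4.05) and 0 were called by edgeR. Neuron markers summed to 132, 193 and 17.7 CPM in AAV-GFP and 7.55, 13.9 and 4.71 CPM in AAV-A2A, with 7 of 7 tested below 0 (median -2.37), an unadjusted p under 0.05 in 3 and 0 called. Endothelial markers summed to 845, 1419.5 and 589 and 335, 432 and 356 CPM, with 4 of 6 below 0 (median -0.93), an unadjusted p under 0.05 in 3 and 0 called. Other lists did not fall alike. Above 0 were 7 of 8 microglia markers (median 0.54), 4 of 7 border macrophage markers (0.65), 4 of 8 astrocyte markers (-0.11) and 2 of 7 oligodendrocyte markers (-0.13). An unadjusted p under 0.05 was found in 0, 2, 1 and 0 of them, and 0 were called. Of all genes 16.0% had such a p and 0.0% were called. The part of these cells in the members' log2 FC was not tested. Without the 3 libraries rich in choroid plexus markers, 0 of 44 members were called (0.0173% of all genes) and their median log2 FC was -0.32, from 1 control library against 2 of AAV-A2A. Without AAV-A2A-2347 alone it was -1.96.

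Whether the vector effect differed between the fractions was tested in 1 fit of all 12 libraries. With edgeR 0 of 45 members were called, where 0.403% of 18602 genes were, and 5 members (11.1%) had an unadjusted p under 0.05, as did 19.6% of all genes. Cfap161 had a difference (ACSA-2 less CD11b) of 2.27 on the log2 scale (SE 0.69, edgeR adjusted p = 0.118) and Cfap100 one of 1.73 (SE 0.54, edgeR adjusted p = 0.126). DESeq2 called both (adjusted p = 0.0276 and 0.0299), where it called 6.73% of all genes. Foxj1 had a difference of -0.37 (SE 0.90, edgeR adjusted p = 0.857), so that its log2 FC in ACSA-2 was not shown to differ from that in CD11b. The members' median difference was 0.42, with 30 above 0 and 15 below, against 0.099 over all genes. Without the 3 libraries rich in choroid plexus markers 0 of 45 members were called (0.0% of all genes), and the median was 0.025, with 23 above 0 and 22 below, against -0.094 over all genes.

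Genes of the same structure under other symbols were measured alongside. Of 9 intermediate and light chains of the dynein arms, 5 were called higher in ACSA-2 than in CD11b and 0 lower (median log2 FC 0.91). Of 15 docking and assembly factors tested, 4 were higher and 1 lower (median 0.82), and of 26 genes of radial spokes, nexin links and the central pair, 11 were higher and 0 lower (median 1.05). Ependymal markers were called higher in 14 of 16 genes (median 2.74), with Tmem212 at 108 to 485 CPM in ACSA-2 and 5.36 to 69.3 CPM in CD11b (log2 FC 3.99, SE 0.45, edgeR adjusted p = 2.63e-05). Choroid plexus markers were called lower in 14 of 20 genes (median -4.99), with Ttr at 467 to 891 CPM in ACSA-2 (log2 FC -4.98, SE 1.70, edgeR adjusted p = 0.0271). Of all genes tested 24.6% were called higher and 29.4% lower in this comparison. Without the 3 libraries rich in choroid plexus markers the median of choroid plexus markers turned to 2.56, with 19 of 20 above 0, and that of ependymal markers was 3.68. The 3 libraries were left out for their high levels of these choroid plexus markers, so the turn of that median follows from the choice. By vector, 0 genes of the 3 axoneme lists were called in either fraction, where 3.36% of all genes were in ACSA-2 and 0.0% in CD11b. Their median log2 FC in ACSA-2 was -0.13, -0.31 and -0.29, and in CD11b -1.12, -1.11 and -1.09. Without the 3 libraries the CD11b medians were -0.78, -0.75 and -0.48.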

How the data were processed

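RNA of ACSA-2 and CD11b sorted hippocampal cells was amplified as full-length cDNA from low input, fragmented by tagmentation and sequenced without molecular identifiers, so that the spread between libraries is technical and biological together. The authors trimmed reads with cutadapt 1.10, aligned them to mm10 with STAR 2.5.3 and deposited raw counts of uniquely aligned, unambiguous reads per Ensembl gene from HTSeq 0.6.1p1. A strand setting is not given in the sources used here. The 25 unnamed empty columns were not used.

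Members were matched in GENCODE vM21 (GRCm38), which held 27813 of 27866 and 30289 of 30359 gene identifiers. Counts were tested with edgeR 4.0.16 (quasi-likelihood, TMM, filterByExpr, robust) in R 4.3.3, over all genes, with Benjamini-Hochberg adjusted p under 0.05 and absolute log2 FC over 0.32. DESeq2 1.42.0, RLE scaling, limma-voom from limma 3.58.1, changed filters and the omission of each library in turn were alternatives, and omission of 3 CD11b libraries was added after seeing the data. A symbol of the regulator list, Ccdc67, was not matched, while Deup1 of the same list was. The test was tried on simulated counts, the outcome of which is not given here, and no result above rests on that trial. CPM in the text use TMM sizes over all 12 libraries, and CPM per kb the union of exons. Figures used matplotlib 3.10.9.

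The members and lists were chosen with earlier results of these data known. Named were Foxj1, the 5 highest members per length in each fraction, members called by vector, the 3 largest rises and falls between fractions with at least 1 CPM, and the most abundant and called genes of the regulator, ependymal and choroid plexus lists (of the called ependymal and choroid plexus genes only the leading ones, the others being counted). Replicate numbers were read as separate samples. The labels do not say that each is 1 animal, and p-values measure the spread between these samples. RefSeq promoters were those of GRCm38.p6. Protein sequences were not analysed here.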

Additional observations from a re-analysis of the deposited data

How the results depend on the processing

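No paired analysis was possible because the groups share no replicate numbers. With limma-voom, RLE scaling, either other filter and the adjusted p alone, the counts of members called stayed within 1.5 times those given. DESeq2 called 3 members in ACSA-2, 2 in CD11b and 2 in the difference between fractions, in place of 0. The fit without CD11b AAV-GFP-2331 called 1 member in that difference (Cfap161), in place of 0. Between fractions the count of 18 became 4 with AAV-GFP libraries alone and 28 without the 3 libraries rich in choroid plexus markers, an alternative chosen after seeing the data, and 16 to 27 with each library left out. With AAV-A2A libraries alone, as many as of AAV-GFP, it was 15. The cause was not tested. Leaving out libraries gave 0 members by vector in each fraction and 0 to 1 in the difference. The summed level in ACSA-2 without the 4 broad genes was 844 CPM in AAV-GFP and 699 CPM in AAV-A2A, and without Cfap20 it was 1026 CPM in AAV-GFP. With each library left out, its group means were 1116 to 1222 CPM in ACSA-2 AAV-GFP, 929 to 1221 in ACSA-2 AAV-A2A, 631 to 999 in CD11b AAV-GFP and 279 to 536 in CD11b AAV-A2A.

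Of 40 log2 FC of named genes under 590 alternatives, 538 kept direction and side of the threshold, 13 lost a call, 15 gained one and 24 changed sign, none of these last with a call. In ACSA-2 by vector, fits that left out a library took Cfap126 from -0.34 to 0.31, Cfap36 from -0.16 to 0.011, Cfap161 from -0.65 to 0.10, Cfap20 from -0.077 to 0.16, Cfap299 from -0.28 to 0.58, Cfap52 from -0.18 to 0.27, Cfap298 from -0.013 to 0.32, Dnah7a from -0.86 to 0.067 and Cfap97 from -0.14 to 0.32. Cfap299 was -0.15 with limma-voom, and Cfap52 -0.044 with limma-voom, -0.00080 with no filter and -0.016 in the fit of 12 libraries. Cfap20 by vector in CD11b was 0.039 without the 3 libraries, and Cfap52 between fractions -0.18 with AAV-GFP alone. The cause was not tested for any of these. Counts of 0 in single CD11b libraries limit what members of low level such as Dnah7a can show.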

Other observations

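The inner arm paralogs Dnah7a, Dnah7b and Dnah7c lie on chromosome 1 and were measured at low levels. In ACSA-2 their levels were 2.87 to 9.39 CPM for Dnah7a, 0.721 to 11 CPM for Dnah7b and 0.283 to 1.15 CPM for Dnah7c. In CD11b Dnah7b had 6.75, 4.26 and 0.444 CPM in AAV-GFP-2328, AAV-GFP-2329 and AAV-GFP-2331 and 0, 0.355 and 5.49 CPM in AAV-A2A-2343, AAV-A2A-2344 and AAV-A2A-2347, with its 3 highest values in the libraries rich in choroid plexus markers, while Dnah7a had 0.918, 3.04 and 0 and 0.257, 0 and 0.644 CPM. Their counts rest on reads that align to 1 copy alone.

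Gmnc, the geminin-like regulator of multiciliated cell fate, had 23.6, 11.7 and 0 CPM and 0, 0 and 6.92 CPM in the CD11b groups, and at most 1.31 CPM in ACSA-2. It had counts in CD11b only in AAV-GFP-2328, AAV-GFP-2329 and AAV-A2A-2347, the 3 libraries rich in choroid plexus markers. Dnah8, an outer arm chain known from sperm, had 34, 3 and 0 counts in CD11b AAV-GFP-2328, AAV-GFP-2329 and AAV-GFP-2331 and 8, 0 and 51 counts in AAV-A2A-2343, AAV-A2A-2344 and AAV-A2A-2347, which are 0.637, 0.0686 and 0 CPM and 0.228, 0 and 0.865 CPM.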
